A study of Mus musculus with 7 samples.

Results

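The genes described here encode the acid-base machinery of renal intercalated cells: the anion exchangers Slc4a1, Slc4a9 and Slc26a4, the proton pump subunits Atp6v1b1, Atp6v0d2 and Atp6v1g3, the transcription factor Foxi1, the carbonic anhydrases Car2 and Car12, and the ammonia channel Rhcg. They were chosen by symbol, and all 10 were found among the 24328 gene rows of the kidney RNA-seq files. All 10 also passed the filter on low values, which kept 17283 genes. The data came from kidneys of 3 LBR-null mice (4001, 4002 and 4007; genotype Lbric-J/ic-J, homozygous for a loss-of-function allele) and 1 WT littermate (4009; Lbr+/+), all C57BL/6J and 4 weeks old. LBR, the lamin B receptor, sits in the inner membrane of the nuclear envelope, where it holds compact chromatin at the edge of the nucleus and also has sterol reductase activity. The allele is carried by every cell of these mice, so a difference in kidney need not arise in the kidney. There were 2 libraries for each of mice 4001, 4007 and 4009 and 1 for mouse 4002. Libraries were averaged within a mouse, so n counts mice. With 1 WT mouse, variation among WT mice could not be measured.

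Intercalated cells are scattered among the principal cells of the connecting tubule and collecting duct. Type A cells pump protons into urine with an apical V-ATPase and return bicarbonate to blood through the basolateral exchanger AE1 (Slc4a1). Type B cells work the other way round and secrete bicarbonate through apical pendrin (Slc26a4), with AE4 (Slc4a9) on the basolateral side. In both types cytosolic carbonic anhydrase II (Car2) supplies protons and bicarbonate from carbon dioxide and water, and the forkhead factor FOXI1 is required for the cells to form.

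The libraries held 20694016 to 26333284 reads on genes. The values are normalized counts, that is reads per gene divided by a size factor of the library, and 1 read was worth 0.787 to 1.15 of them. The tissue label held at the level of markers. Umod, Slc12a1 and Aqp2, which mark the thick ascending limb and principal cells, each had at least 17832 normalized counts in every library, and Foxi1, which marks intercalated cells, had at least 659. Lbr itself was at 322, 340 and 471 normalized counts in mice 4001, 4002 and 4007 and at 398 in the WT mouse. The level of a transcript with this allele was not tested, and Lbr therefore does not check the genotype. Xist, transcribed from the inactive X chromosome, was at 5352 to 10163 in the libraries of mice 4001 and 4007, at 65.3 in mouse 4002 and at 39.4 and 31.7 in the WT mouse. The Y-linked gene Ddx3y was at 1516 in mouse 4002, at 1299 and 1269 in the WT mouse, at 149 and 133 in mouse 4001 and at 49.4 and 39.2 in mouse 4007. Mouse 4002 is thus the LBR-null mouse most like the WT mouse in both genes, and the labels give no sex. In Ddx3y, mouse 4001 lay between mouse 4007 and the WT mouse. Mice 4001 and 4007 differed from the WT mouse in genotype and in both of these genes. In their values, genotype and what goes with Xist and Ddx3y cannot be told apart.

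No intercalated cell gene passed the test for a difference between LBR-null and WT kidneys, and the values leaned down more often than up. Car2 (51.1% of the WT level) and Car12 (54.2%) had the lowest values relative to WT, and Slc4a9, at 1.69 times the WT level, had the highest. On log2(normalized counts + 1), 7 of the 10 genes had a log2 fold change below 0 and 3 above 0. The median of the 10 was −0.48, beside a median of 0.01 over all genes tested and 0.0017 over the 4824 genes with a mean of at least 1000 normalized counts, a group that includes all 10. limma called 0 of the 10 genes at an adjusted p of 0.05 and also 0 of 17283 genes overall (0.0%). edgeR called 0 of the 10 (0.162% of all genes) and DESeq2 called 0 of the 10 (7.06% of the genes with an adjusted p). At an unadjusted p under 0.05 from limma, 2 of the 10 were lower, where 8.05% of all genes and 7.23% of the abundant genes were, and 0 were higher, where 10.7% and 6.57% were. Of the 10, the count that was lower became 4 without mouse 4002 and 0 without mouse 4007, and the count that was higher became 1 (Slc4a9) without mouse 4001.

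Overlap between the libraries was counted without a test. In 6 of the 10 genes every LBR-null library lay below both WT libraries (Slc26a4, Atp6v1b1, Foxi1, Car2, Car12 and Rhcg), a pattern seen in 25.7% of all genes tested and 26.7% of the abundant ones. In 2 of the 10 every LBR-null library lay above them (Slc4a9 and Atp6v0d2), as in 25.5% and 26.8% of those genes. Slc4a1 and Atp6v1g3 overlapped with WT. With libraries scaled to equal totals, 2 more genes overlapped: Slc4a9 in the first library of mouse 4001 (2776 against 2914 and 2854 in WT) and Atp6v1b1 in mouse 4002 (3956 against 3883 and 3871). None of the 10 reached a 2-fold difference of the averages in either direction. Among genes above 0 in either group, 22.7% were 2-fold up and 8.8% were 2-fold down, and among the abundant genes 4.44% and 3.52% were. Without mouse 4002, 1 gene, Car2, was 2-fold down. In whole kidney RNA, fewer intercalated cells and less RNA per cell cannot be told apart.

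**Figure D1:**
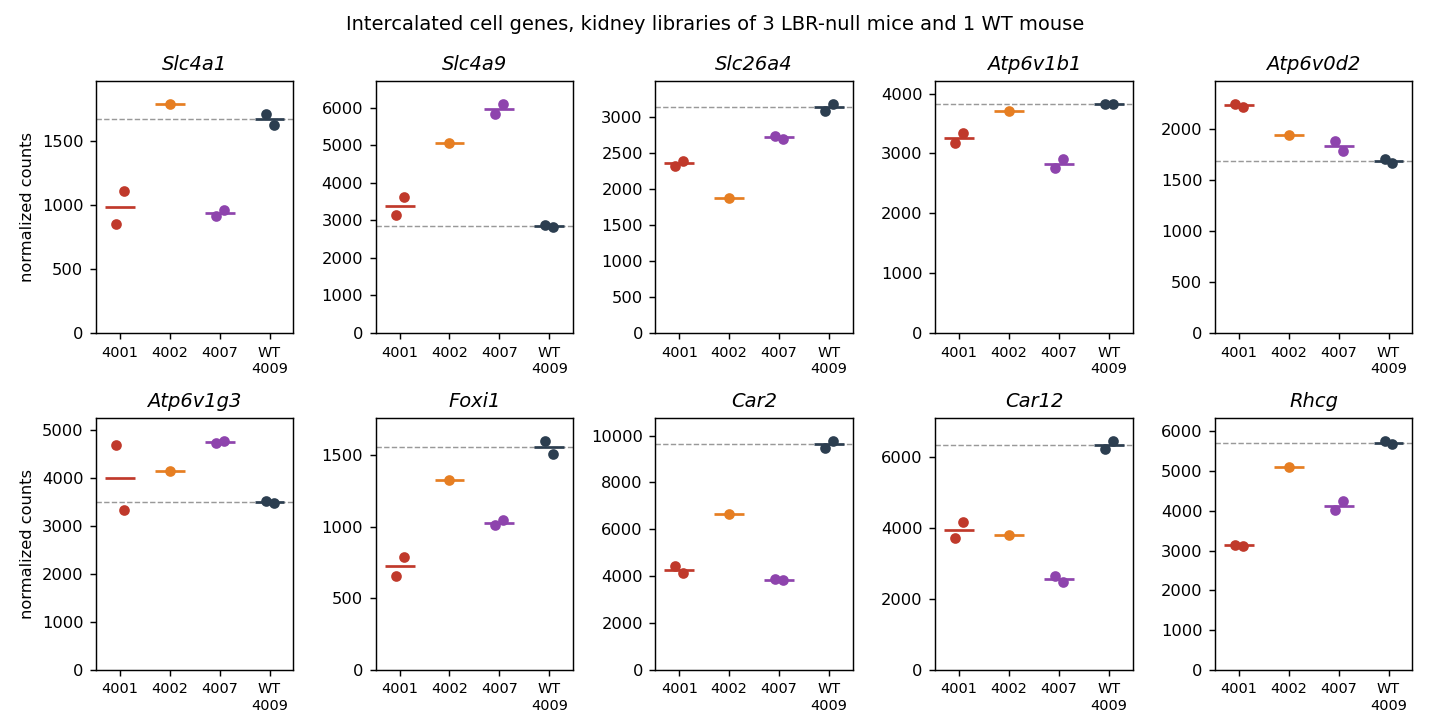
Normalized counts of the 10 intercalated cell genes in each library (points), by mouse, with the mean of the mouse as a bar and the WT mean as a dashed line; the vertical axes start at 0. Car2 and Car12 lie below WT in all 5 LBR-null libraries, while Slc4a9 lies above it, and mouse 4002 stands close to WT for Slc4a1, Atp6v1b1 and Foxi1.

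Among the 3 anion exchangers, the values went in different directions, and the pair that works in type B cells was split. Slc4a9, which encodes AE4 (chr18:36687805-36715909 of mm9), was at 3135 and 3614 normalized counts in mouse 4001, 5047 in mouse 4002, and 5835 and 6095 in mouse 4007, against 2872 and 2819 in the WT mouse. All 5 LBR-null libraries were above WT, except the first of mouse 4001 under equal totals, and mouse 4001 was the nearest to it. The mean was 4795 ± 1313 (SD, n = 3 mice) against 2845, with a log2 fold change of 0.71 (SE, standard error, 0.37, limma adjusted p = 0.355). Without mouse 4001 the log2 fold change was 0.95 with an adjusted p of 0.0552, the lowest that this gene had in any fit tried.

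Slc26a4, which encodes pendrin (chr12:32204692-32244834), was at 2318 and 2389.75 in mouse 4001, 1866 in mouse 4002, and 2729.7 and 2696 in mouse 4007, against 3082 and 3176 in WT. Every LBR-null library was lower than WT, and mouse 4002 was the lowest. The mean of 2311 ± 425 (SD, n = 3) was 73.8% of the WT value of 3129, a log2 fold change of −0.45 (SE 0.29, limma adjusted p = 0.450).

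Slc4a1 (chr11:102210138-102227517), which encodes AE1, also known as band 3 of red cells, was at 852 and 1110.1 in mouse 4001, 1786 in mouse 4002, and 911 and 957 in mouse 4007. The WT libraries were at 1707 and 1625. Mice 4001 and 4007 were lower than WT, but mouse 4002 was above both WT libraries, so the groups overlapped. The log2 fold change was −0.50 (SE 0.40, 95% interval −1.48 to 0.48, limma adjusted p = 0.554), and it was −0.80 without mouse 4002 (adjusted p = 0.188).

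Red cell precursors also express Slc4a1 and Car2, so erythroid markers were examined beside them. Of 12 listed markers 11 were in the files and 10 were tested, and every LBR-null library was above both WT libraries for 4 of them and below for 4. Their summed level was 1043 to 1580.0 normalized counts in the LBR-null libraries and 2569 and 2553 in the WT libraries. Without Alas2 the other 10 markers in the files summed to 451 to 939.8 in LBR-null libraries and to 421 and 449.6 in WT, so the lower total was that of Alas2. The most abundant of them in WT was Alas2, the first enzyme of heme synthesis in red cell precursors, at 551 to 671 in LBR-null libraries against 2148 and 2103 in WT. DESeq2 called Alas2 lower (adjusted p = 2.74e-08) and edgeR did too (adjusted p = 0.0475). Hemgn was at 0 in 2 LBR-null libraries. The part of erythroid RNA in the Slc4a1 and Car2 values was not tested.

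**Figure D2:**
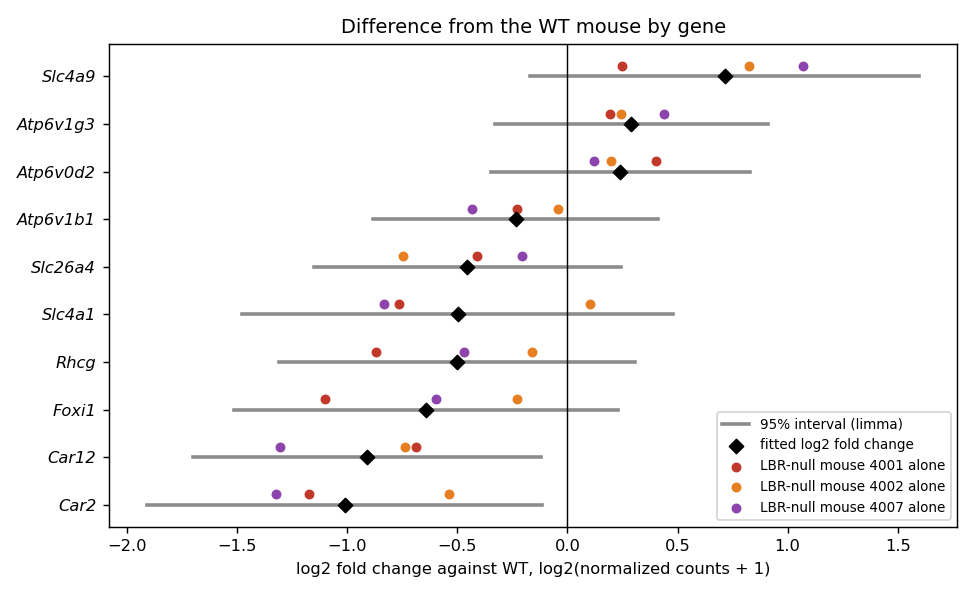
Log2 fold change against the WT mouse for each gene, fitted over the 3 LBR-null mice (diamonds, with the 95% interval from limma as grey bars) and for each LBR-null mouse alone (coloured points). The intervals of Car2 and Car12 lie below 0 and the other 8 span 0; no gene passed after adjustment over all genes.

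Ratios between genes of the same library do not depend on the size factor of the library. They were chosen after the values were seen and are given with no test. The ratio of Slc4a9 to Slc26a4 was 0.932 and 0.887 in the WT libraries. It was 1.35 and 1.51 in mouse 4001, 2.71 in mouse 4002, and 2.14 and 2.26 in mouse 4007, which is above WT in all 5. That side was fixed, since Slc4a9 was above and Slc26a4 below WT in every LBR-null library. The count of Slc4a9, the basolateral exchanger of type B cells, was below that of the apical Slc26a4 in both WT libraries and above it in each LBR-null library. The ratio of Slc4a9 to Slc4a1 was 2.83 to 6.41 in LBR-null libraries against 1.68 and 1.73 in WT. The ratio of Slc26a4 to Slc4a1, the apical type B and the basolateral type A exchanger, was 1.04 to 2.997 against 1.81 and 1.95, with overlap.

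**Figure D3:**
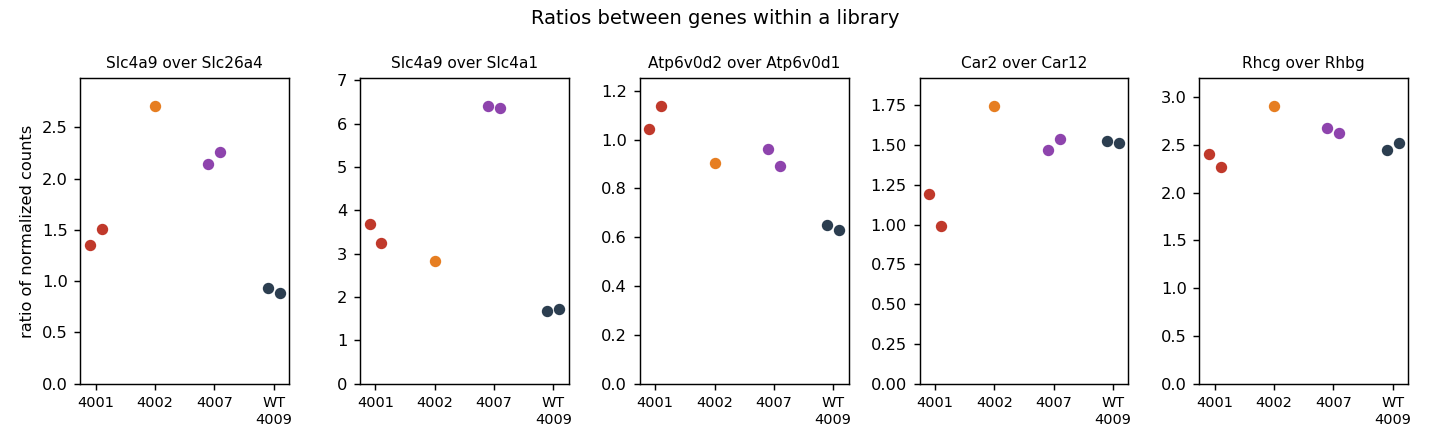
Ratios of normalized counts between pairs of genes within each library (points), by mouse; vertical axes start at 0. Slc4a9 over Slc26a4, Slc4a9 over Slc4a1 and Atp6v0d2 over Atp6v0d1 are above both WT libraries in all 5 LBR-null libraries, and Car2 over Car12 and Rhcg over Rhbg overlap with WT. For Slc4a9 over Slc26a4 and Atp6v0d2 over Atp6v0d1 this follows from the genes of each pair lying on opposite sides of WT.

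The carbonic anhydrases were the lowest of the 10 genes relative to WT. Car2 (chr3:14886426-14900769), the cytosolic enzyme, was at 4428 and 4113 in mouse 4001, 6633 in mouse 4002, and 3894 and 3811 in mouse 4007, against 9478 and 9781 in WT. The groups did not overlap, and mouse 4002 lay between the other LBR-null mice and WT. The mean was 4919 ± 1499.6 (SD, n = 3) against 9629.6, a log2 fold change of −1.01 (SE 0.37, 95% interval −1.91 to −0.11, unadjusted p = 0.0327 and limma adjusted p = 0.217). Each LBR-null mouse taken alone was below WT, at −1.17 in mouse 4001, −0.54 in mouse 4002 and −1.32 in mouse 4007 on the log2 scale. Car2 is not restricted to intercalated cells in the kidney.

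Car12 (chr9:66561493-66614652) encodes a membrane-bound enzyme with its active site outside the cell. It was at 3704 and 4149 in mouse 4001, 3800.3 in mouse 4002, and 2645 and 2474 in mouse 4007, against 6209 and 6448 in WT. All LBR-null libraries were below WT, with mouse 4007 the lowest. The mean was 3429 ± 756 (SD, n = 3) against 6329, a log2 fold change of −0.91 (SE 0.33, 95% interval −1.70 to −0.12, unadjusted p = 0.0303 and limma adjusted p = 0.209). In mouse 4002 alone the log2 difference was −0.74. The ratio of Car2 to Car12 was 0.991 to 1.75 in LBR-null libraries and 1.53 and 1.52 in WT, with overlap.

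Of the relatives of Car12 that are bound to the membrane, Car4 and Car14 overlapped with WT, Car15 was below it and Car9 above it. Car4 was at 1962 to 3351 normalized counts against 2305 and 2369, with a log2 fold change of 0.13 (SE 0.32), and Car14 was at 733 to 1836 against 1236 and 1322, with a log2 fold change of −0.24 (SE 0.49). Car15, named after its values were seen, was at 3158 to 5593 against 5995 and 6270.1, with a log2 fold change of −0.65 (SE 0.35, limma adjusted p = 0.376), and Car9 had the highest log2 fold change of the listed carbonic anhydrases (2.12). Per kilobase of exon, Car4 was at 1329 ± 305 (SD, n = 3) in LBR-null mice and 1189 in WT, while Car12 was at 755 ± 166 and 1394.

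The 3 V-ATPase subunits are the forms enriched in intercalated cells, each with a ubiquitous relative. Atp6v1b1, the B1 subunit of the catalytic domain (chr6:83693011-83708803), was at 3173 and 3346 in mouse 4001, 3711 in mouse 4002, and 2755 and 2909 in mouse 4007, against 3827 and 3823 in WT. It was lower in all LBR-null libraries, with mouse 4002 close to WT and above it under equal totals, and the log2 fold change was −0.24 (SE 0.27, limma adjusted p = 0.684). Its ubiquitous counterpart Atp6v1b2 was at 3228 to 6829 normalized counts against 5557 and 5737, with a log2 fold change of −0.38 (SE 0.44). The ratio of Atp6v1b1 to Atp6v1b2 was 0.465 and 0.498 in mouse 4001, 1.15 in mouse 4002, and 0.719 and 0.785 in mouse 4007, against 0.689 and 0.666 in WT.

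Atp6v0d2, the d2 subunit of the membrane domain (chr4:19803988-19849752), was at 2248 and 2222 in mouse 4001, 1939 in mouse 4002, and 1881 and 1786 in mouse 4007, against 1705 and 1673 in WT. It was above WT in all 5 LBR-null libraries by a small margin, with a log2 fold change of 0.24 (SE 0.24, limma adjusted p = 0.644). Its ubiquitous relative Atp6v0d1 lay on the other side of WT, at 1955 to 2158 against 2619.99 and 2662, lower in all LBR-null libraries (log2 fold change −0.36, SE 0.23, adjusted p = 0.451). The ratio of d2 to d1 was 0.893 to 1.14 in LBR-null libraries against 0.651 and 0.628 in WT. The lack of overlap follows from the genes lying on opposite sides of WT and adds nothing to it.

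Osteoclasts also express Atp6v0d2, and the osteoclast and macrophage list was measured beside it. Of 15 tested markers, 3 lay above both WT libraries in all LBR-null libraries and 8 below. Their summed level was 3710.4 to 4423 in LBR-null libraries and 5790.5 and 5868 in WT, a sum made mostly of macrophage genes such as Csf1r. Acp5, the tartrate-resistant acid phosphatase of osteoclasts and macrophages, was at 31.1 to 86.8 against 754 and 745 and was called lower by DESeq2 (adjusted p = 3.64e-09). The other 6 osteoclast genes of the list, named after their values were seen, lay on both sides of WT. Mmp9, a matrix metalloproteinase, was at 5.16 to 64.3 against 97.6 and 94.99, below WT in all 5 (log2 fold change −2.09, SE 1.18, limma adjusted p = 0.396). Ctsk, which encodes cathepsin K, was at 224 to 474 against 388 and 415 and overlapped with WT (log2 fold change −0.51, SE 0.40). Dcstamp, a fusion protein of osteoclasts, was at 2.79 to 14.2 against 1.57 and 1.81, above WT in all 5 (log2 fold change 1.86, SE 0.73, limma adjusted p = 0.242). Calcr, the calcitonin receptor, was at 8.04 to 27.0 against 6.30 and 8.14. Oscar was at 0 to 13.7 against 0.787 and 2.71, and Ocstamp at 0 to 12.1 against 8.66 and 1.81. The part of these cells in the Atp6v0d2 values was not tested.

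Atp6v1g3, the G3 subunit of the stalk (chr1:140170315-140186037), was at 4669.9 and 3318 in mouse 4001, 4133 in mouse 4002, and 4719.9 and 4769 in mouse 4007, against 3519 and 3477 in WT. Only the second library of mouse 4001 was below WT, and that mouse alone spanned the WT value. The mean was 4290.4 ± 399 (SD, n = 3) against 3498, with a log2 fold change of 0.29 (SE 0.26, limma adjusted p = 0.589). It was 0.20 without the first library of mouse 4001 and 0.37 without the second. The relatives Atp6v1g1, the ubiquitous G1 form, and Atp6v1g2, a neuronal form, had log2 fold changes of 0.02 (SE 0.26) and −0.37 (SE 0.46), and Atp6v1g2 was at no more than 124 normalized counts in any library.

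The 33.9% gap between the libraries of mouse 4001 for Atp6v1g3 was the largest among the 10 genes, and Slc4a1 followed with 26.3%. Over the 10 genes the gap between the libraries of a mouse had a median of 9.35% for 4001, 4.65% for 4007 and 2.46% for 4009. Across 4541 abundant genes with a known exon length, the log2 ratio of the first to the second library of mouse 4001 had a Spearman correlation of −0.648 with exon length. This describes those libraries only, since the genes share depth and size factor. The median ratio was 0.225 for the 25% of genes with the shortest exons and −0.127 for the 25% with the longest. In mice 4007 and 4009 the correlations were 0.170 and 0.0335. At 1885 bp of exon, Atp6v1g3 was shorter than 84.6% of these genes. It was higher in the first library of mouse 4001, as were Car2, Atp6v0d2 and Rhcg, and the other 6 of the 10 genes were higher in the second. The part of length in any single value was not tested. The log2 fold change between the genotypes had a correlation of 0.0954 with length.

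**Figure D4:**
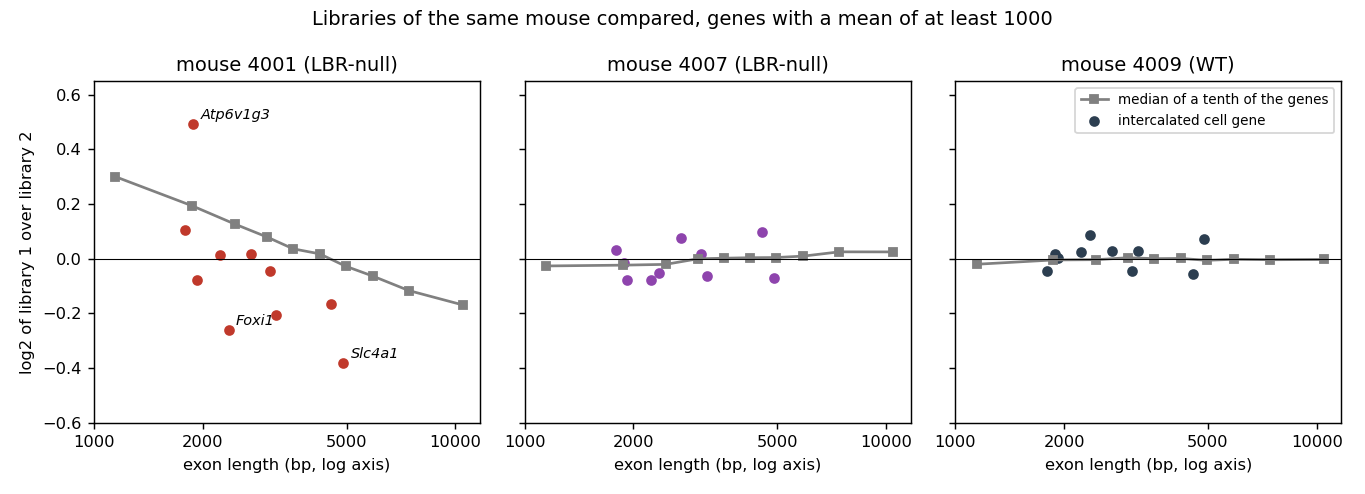
Log2 ratio of the first over the second library of the same mouse against exon length (log axis), for the abundant genes (mean of 1000 normalized counts or more); grey squares are medians of 10 groups of genes by length, coloured points the 10 intercalated cell genes. The grey line slopes down from 0.30 to −0.17 in mouse 4001 and stays within 0.03 of 0 in mice 4007 and 4009.

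Foxi1 (chr11:34104338-34108089), the forkhead factor that several of the other genes depend on, was at 659 and 791 in mouse 4001, 1326 in mouse 4002, and 1010.5 and 1047 in mouse 4007, against 1603 and 1509 in WT. All 5 LBR-null libraries were below WT, mouse 4001 the lowest and mouse 4002 the nearest. The mean was 1027 ± 300.5 (SD, n = 3) against 1556, a log2 fold change of −0.64 (SE 0.36, 95% interval −1.51 to 0.23, limma adjusted p = 0.394). In mouse 4002 alone the log2 difference was −0.23, and in mouse 4001 it was −1.10.

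Rhcg (chr7:86738249-86762543) encodes the ammonia channel through which ammonia leaves collecting duct cells for urine. It was at 3143 and 3113 in mouse 4001, 5109 in mouse 4002, and 4009 and 4236 in mouse 4007, against 5766 and 5670.3 in WT. It was lower than WT in all 5 LBR-null libraries and ordered the mice as Foxi1 did, with a log2 fold change of −0.50 (SE 0.34, limma adjusted p = 0.472). The basolateral ammonia channel gene Rhbg was also below WT in all 5 LBR-null libraries, at 1309 to 1758 against 2351 and 2253, with a log2 fold change of −0.58 (SE 0.26, adjusted p = 0.293). The ratio of Rhcg to Rhbg, 2.27 to 2.91, spanned the WT ratios of 2.45 and 2.52.

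Likeness to Foxi1 was measured as the Euclidean distance between log2 profiles over the 7 libraries, each centred on its own mean, among 13057 genes with a mean of at least 50. The 5 nearest were Tada3 (distance 0.103), Nfam1 (0.130), Mospd3 (0.162), Marcksl1-ps4 (0.166) and Ttc8 (0.169). Tada3 was at 237 to 498 normalized counts in LBR-null libraries and at 632 and 584 in WT. Of the other intercalated cell genes Rhcg was nearest, at a distance of 0.314 and rank 67, and Slc4a1 followed at 0.641 and rank 926. Slc4a9 was the farthest, at 1.77. The 7 libraries come from 4 mice, so such a profile has few independent points.

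The promoters of 6 of the 10 genes were in the RefSeq promoter table (GRCm38.p6; 250 bases before to 50 after the start), namely Slc26a4, Atp6v1b1, Atp6v1g3, Foxi1, Car12 and Rhcg. The forkhead core TAAACA, sought on both strands (TGTTTA on the other), was in 2 of the 6, beside 13.4% of 32851 promoters of the same length. The longer GTAAACA, which contains the core, was in 1 of the 6 (Atp6v1b1), beside 3.65% of all. Both promoters that hold the core are shown, 5′ to 3′ on the strand of the gene, since they are the ones in which the letters of a forkhead site occur, and the capitals mark the core. The 250 bases before the start are printed. In Atp6v1b1 (chr6:83742767-83743016, plus strand) it begins 98 bases before the start, and in Car12 (chr9:66713436-66713685, plus strand) 11 bases before it, on the opposite strand in both.
Atp6v1b1: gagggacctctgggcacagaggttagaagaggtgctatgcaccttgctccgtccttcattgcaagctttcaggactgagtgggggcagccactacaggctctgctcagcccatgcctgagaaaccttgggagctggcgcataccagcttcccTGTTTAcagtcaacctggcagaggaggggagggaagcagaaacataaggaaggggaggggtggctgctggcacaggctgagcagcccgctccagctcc
Car12: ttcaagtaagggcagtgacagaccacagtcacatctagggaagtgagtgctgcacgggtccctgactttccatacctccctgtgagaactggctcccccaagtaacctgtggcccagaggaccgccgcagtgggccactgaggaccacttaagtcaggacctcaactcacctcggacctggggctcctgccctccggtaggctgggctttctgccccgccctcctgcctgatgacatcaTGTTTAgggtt

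These 2 genes had log2 fold changes of −0.24 and −0.91, and the 4 genes without the letters in this window ranged from −0.64 (Foxi1) to 0.29 (Atp6v1g3). A match is a description of letters and not of binding. CpG content differed widely between the 6 windows. The observed over expected CpG ratio was 0.122 in Atp6v1b1, 0.126 in Atp6v1g3, 0.232 in Foxi1, 0.321 in Slc26a4, 0.356 in Car12 and 0.701 in Rhcg, beside a median of 0.384 over all promoters in the table. Atp6v1b1 and Atp6v1g3, the poorest in CpG, had log2 fold changes of opposite sign.

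Levels can be compared between genes per kilobase of exon. In the WT mouse Car2 was the most abundant at 5383 normalized counts per kilobase, followed by Rhcg (2561), Atp6v1b1 (1986), Atp6v1g3 (1855), Car12 (1394), Slc26a4 (1018), Slc4a9 (891), Foxi1 (660), Atp6v0d2 (622) and Slc4a1 (341). No neighbours in this order overlapped between the WT libraries. In LBR-null mice Car2 was still first, at 2749 ± 838 per kilobase (SD, n = 3), and Slc4a1 still last, at 252 ± 97.9. Atp6v1g3 was second at 2276 ± 212 and Slc4a9 was at rank 5 with 1501 ± 411, above Car12 (755 ± 166) and Slc26a4 (752 ± 138). In LBR-null mice the ranges of neighbours overlapped except between Slc4a9 and Car12 and between Atp6v0d2 and Foxi1. The exon length counts all annotated exons of a gene, so the levels are approximate.

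Seen by mouse, the median of the 10 genes was nearest to WT in mouse 4002. The median log2 difference from WT was −0.55 in mouse 4001 (range −1.17 to 0.40), −0.10 in mouse 4002 (−0.75 to 0.83) and −0.45 in mouse 4007 (−1.32 to 1.07). Mouse 4002 was the LBR-null mouse closest to WT for 5 genes (Slc4a1, Atp6v1b1, Foxi1, Car2 and Rhcg), as it was for 48.5% of the 4824 abundant genes. It was on the same side of WT as the mean for 9 of the 10, the exception being Slc4a1. In mouse 4001, 2 genes were 2-fold or more below WT (Foxi1 and Car2), and in mouse 4007 also 2 (Car2 and Car12), while Slc4a9 was at more than 2 times WT in mouse 4007. With 1 such mouse, likeness in Xist and Ddx3y and the individual cannot be told apart.

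The other V-ATPase subunits were set beside the forms enriched in intercalated cells. Atp6v0c, at no more than 2.36 normalized counts in any library, was not tested, so the list does not cover the pump as a whole. The other 21 of the 22 listed had a median log2 fold change of −0.11. Every LBR-null library was below both WT libraries for 6 and above for 2. limma and edgeR called 0, and DESeq2 called 1, Atp6v0e2, an isoform of the small e subunit, at 436 to 519 against 1009 and 1039 (log2 fold change −1.10, SE 0.24, DESeq2 adjusted p = 0.00859, limma adjusted p = 0.114). Atp6v0a4, named after its values were seen, is the a4 subunit of intercalated and proximal tubule cells. It was at 13007 and 14573 in mouse 4001, 4823 in mouse 4002, and 6518 and 6573 in mouse 4007, against 4025 and 3922 in WT (log2 fold change 0.93, SE 0.57, limma adjusted p = 0.432). It was above WT in all 5 LBR-null libraries, with mouse 4001 far above the other mice.

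Other genes of intercalated cells had a median log2 fold change of 0.25, of the opposite sign to that of the 10 genes. Of 15 tested, 7 were above both WT libraries in all LBR-null libraries and 2 below, and limma, edgeR and DESeq2 called 0, with 0 at an unadjusted p under 0.05 from limma. Dmrt2, a transcription factor of type A cells, was at 176 to 238 against 135 and 136 (log2 fold change 0.67, SE 0.31), and Avpr1a, the vasopressin V1a receptor, was at 433 to 602 against 379 and 305 (log2 fold change 0.58, SE 0.28). Insrr, a receptor that senses alkali in type B cells, was at 365 and 354 in mouse 4001, 963 in mouse 4002, and 786 and 862 in mouse 4007, against 1204 and 1089 (log2 fold change −0.80, SE 0.55, limma adjusted p = 0.481).

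Further bicarbonate and acid carriers and carbonic anhydrases ranged from −3.45 to 2.12 on the log2 scale, with a median of −0.24 over 17 genes, of which 8 were below and 3 above both WT libraries in all LBR-null libraries. DESeq2 called Car9, a hypoxia-responsive carbonic anhydrase, higher, at 302 to 381 against 71.7 and 86.8 (log2 fold change 2.12, SE 0.29, adjusted p = 3.30e-07). It called Atp4a, the gastric-type proton-potassium pump subunit of intercalated cells, lower, at 202 to 330 against 706 and 619.7 (log2 fold change −1.26, SE 0.32, adjusted p = 0.0180). limma called neither, with adjusted p of 0.0795 and 0.122. Slc4a2, the widely expressed AE2 exchanger related to Slc4a1, was at 1196 to 1492 against 1844 and 1741, below WT in every library (log2 fold change −0.40, SE 0.24, adjusted p = 0.420).

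Among 4 genes of ammonia production in the proximal tubule, DESeq2 called Pck1 higher, the gene of a gluconeogenic enzyme. It was at 188628 and 187779 in mouse 4001, 87425 in mouse 4002, and 98522 and 100733 in mouse 4007, against 39215 and 39019.8 in WT (log2 fold change 1.59, SE 0.70, DESeq2 adjusted p = 0.0135, limma adjusted p = 0.291). Pck1 and Glud1 were above WT in all 5 LBR-null libraries, and Slc38a3 overlapped.

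Markers of neighbouring and other cells are given because the 10 genes were read from whole kidney. The 9 principal cell markers had a median log2 fold change of 0.18, with 2 above and 0 below both WT libraries in all LBR-null libraries and a summed level of 37819.8 to 64647 against 41274 and 41026. DESeq2 called Scnn1a, a subunit of the epithelial sodium channel, higher, at 4576 to 8268 against 2337 and 2261 (log2 fold change 1.26, SE 0.35, adjusted p = 0.0241). The 9 genes of collecting duct cell fate had a median of −0.25. Grhl2 (0.52) and Mib1 (0.48) were above WT in all 5 LBR-null libraries, Adam10 (−0.27) and Notch2 (−0.14) were below, and the other 5 overlapped. None of these 9 was called by limma, edgeR or DESeq2.

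The 10 kidney segment markers had a median log2 fold change of −1.39, with 7 below and 1 above both WT libraries in all LBR-null libraries, and a summed level of 95045.6 to 184193 against 187221 and 186529. DESeq2 called 5 of them lower: the proximal tubule genes Slc34a1 (log2 fold change −1.67), Lrp2 (−1.59), Slc5a2 (−2.02) and Slc22a6 (−4.19), and Pvalb of the distal convoluted tubule (−2.82). edgeR called Slc22a6 as well. The median of the 10 intercalated cell genes was −0.48, and no test was run between the lists. The part of tubule composition in their values was not tested.

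**Figure D5:**
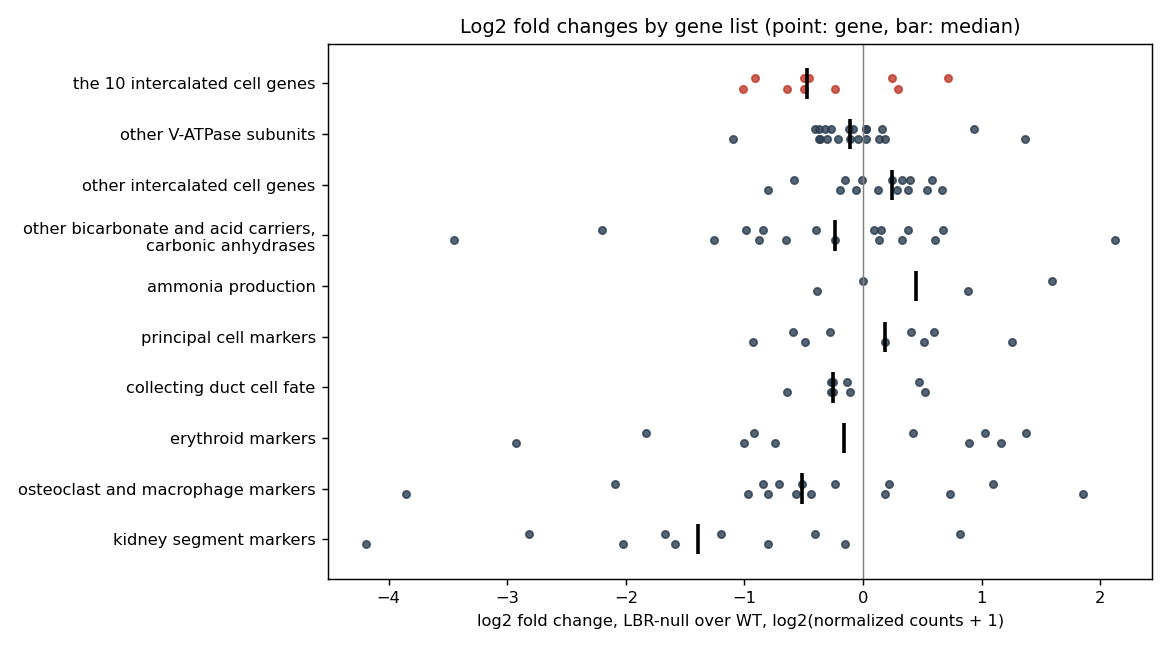
Log2 fold changes of LBR-null over WT kidneys for the 10 intercalated cell genes (red) and the other gene lists (dark); each point is a gene and each bar the median of its list. The 10 genes run from −1.01 to 0.71, the other intercalated cell genes from −0.80 to 0.67, and the kidney segment markers from −4.19 to 0.82.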

How the data were processed

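RNA-seq of flash-frozen kidney (poly(A) selected, paired-end) was analysed for 7 libraries of 4 mice. Per the labels, STAR 2.6.0 was used for alignment to mm9, and the authors deposited a signal for each gene symbol, its count divided by a DESeq2 1.25.1 size factor. The counting program and annotation are not given in the sources used here. Values were whole multiples of 1 read, within 0.01 read for 100% of them, so reads were recovered by division. Depth was 20694016 to 26333284 reads. Precision was set by the spread between mice.

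Libraries were averaged within a mouse. The main test was limma 3.58.1 in R 4.3.3 (eBayes, trend) on log2(normalized counts + 1). It covered the 17283 genes whose mean reached 5, and p-values were adjusted over all of them by Benjamini-Hochberg. With 2 residual degrees of freedom, this takes the spread of the LBR-null mice for that of the single WT mouse too. An exact permutation test of 3 mice against 1 cannot give a one-sided p below 0.25 and was not used. As alternatives, reads summed per mouse were tested by DESeq2 1.42.0 and by the quasi-likelihood test of edgeR 4.0.16, and 671 genes without a DESeq2 adjusted p were not counted. The fits were tested on simulated data. A 2-fold difference was counted from the averages of the groups. Coordinates and exon lengths come from GENCODE vM1 on mm9. The added 1 shrinks the fold change of genes with few reads.

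The genes and lists were chosen with earlier results of these data known. Beyond the 10 genes, Lbr and the relatives fixed for them, the named genes of each list are those past an adjusted p of 0.05 in any tool, otherwise the 2 highest and 2 lowest that did not overlap with WT, and the 5 genes nearest to Foxi1. Epb42 is listed as Epb4.2, and Ahsp was not analysed here. Protein sequences were not used here, and some results are not reported here. Alternatives covered the pseudocount, the filter, the scaling, the tool, the treatment of libraries and the leaving out of mice or libraries.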

Additional observations from a re-analysis of the deposited data

Results flagged for a closer look

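For each of the 10 genes the 5 LBR-null libraries were examined for a library far from the others, by the gap of the highest or lowest to its neighbour relative to the range. Mouse 4002 stood apart in 2 of the 10. Slc4a1 was at 1786 normalized counts in mouse 4002 and at 852 to 1110.1 in the other 4 libraries, with the WT libraries at 1707 and 1625. Car2 was at 6633 in mouse 4002 and at 3811 to 4428 in the others, with WT at 9478 and 9781. For 5 independent libraries, chance alone would give about 1 in 20 groups such a library. That rate does not apply to these libraries, and the share of all genes flagged in this way was not counted. The other 4 libraries are pairs from mice 4001 and 4007 and are not independent, so mouse 4002 is 1 mouse of 3, and the cause was not tested.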

How the results depend on the processing

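The log2 fold change of each of the 10 genes kept its sign in every fit tried, 190 values in all, between −1.25 (Car2) and 0.95 (Slc4a9). The median of the 10 lay between −0.51 and −0.34. On mouse values limma called 0 of the 10 under every pseudocount, filter and scaling tried, and 0 when a mouse or a library was left out. edgeR and DESeq2, each run once on the recovered reads, also called 0. Calls appeared only when libraries were entered as samples, which counts both libraries of a mouse toward the spread: 1 gene (Car2, adjusted p = 0.0454) with the mouse as a random block, and 5 (Slc4a1, Foxi1, Car2, Car12 and Rhcg) with the library number as a replicate block and mouse 4002 left out. Without that block the same libraries also gave 5, a fit added after the values were seen. The numbers do not pair the libraries: correlations of same-numbered libraries were −0.0163, −0.00491 and −0.0421. With libraries scaled to equal totals, 1 gene in place of 2 had all LBR-null libraries above WT. Leaving out mice or libraries moved the count of genes 2-fold down between 0 and 1. Without the filter on low values, 0 genes in place of 2 were lower at an unadjusted p under 0.05, and with the random block 1 gene in place of 0 was higher. Over all genes, DESeq2 called 563 higher and 610 lower where limma called 0, and limma called 566 higher and 725 lower without mouse 4001, and 338 and 287 without mouse 4002. With libraries as samples it called 417 and 586 with the random block, 2398 and 2133 with the replicate block, and 3060 and 2840 without that block. With 1 WT mouse, variation between WT mice limits every comparison.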
